A study of Mus musculus with 8 samples.

Results

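The genes described here carry glucose into the cell, break it down to pyruvate, and decide whether pyruvate leaves as lactate or enters the mitochondrion. They were taken by symbol from a fixed list of 41 genes, which matched 42 of the 55558 Ensembl gene features in the deposited count table, because Aldoa is listed under 2 identifiers. The study set the mouse kidney line mK3, labelled as metanephric mesenchyme before induction, beside mK4, labelled as metanephric mesenchyme that has differentiated towards epithelium. Both lines are wild type per the labels, untreated, and were grown in the same serum-containing DMEM. There were 3 RNA libraries of each line, from total RNA depleted of ribosomal RNA, and 1 ATAC-seq library of each, which maps open chromatin by transposase insertion. Each line is a single cultured population, and whether its 3 libraries stem from separate cultures is not stated in the labels. The p-values therefore cover only differences among libraries of a line, which may be technical. In such bulk samples, fewer cells of a type and less RNA per cell cannot be told apart.

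Glycolysis splits glucose into pyruvate in the cytosol. Most of its steps can be run by several isozymes, encoded by separate genes that differ in affinity, regulation and tissue. Pyruvate is then reduced to lactate by lactate dehydrogenase and exported with a proton by monocarboxylate carriers, or it is oxidised by the pyruvate dehydrogenase complex, which the PDH kinases switch off by phosphorylation. In the developing kidney, nephron progenitors are known for strong glycolysis, and the mature proximal tubule for oxidation and gluconeogenesis.

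The RNA libraries held 137559391 to 152952351 counts, of which genes took 133899125 to 146187601. The listed genes took 0.390 to 0.403% of gene counts in mK3 and 0.637 to 0.666% in mK4. Summed over the list, mK3 libraries held 3888 to 4347 CPM, against 6220 to 6398 CPM for mK4 libraries. Much of this rise came from Pgk1 alone, whose mean went from 915 ± 114 to 2321 ± 115 CPM (SD, n = 3 libraries). No library stood apart: libraries of a line correlated at 0.944 to 0.958 over tested genes on the log2 scale, and libraries of different lines at 0.767 to 0.784. In mK4, 4 of 10 epithelial marker genes (Cdh16, Pax8, Wnt4 and Lhx1) were called higher, but the defining markers Epcam, Krt18, Cldn3 and Cldn4 had 0 counts in all mK4 libraries, Krt8 had 0, 16 and 0, and Cdh1 had 59, 0 and 59. The summed epithelial markers came to 0.756 to 1.97 CPM in mK3 and 132 to 147 CPM in mK4. Of 10 mesenchyme markers 8 were lower in mK4, Vim was higher and Thy1 was at 0 throughout, and their sum was 3749 to 4260 CPM in mK3 and 290 to 308 CPM in mK4. Of 8 nephron progenitor markers, 3 were higher in mK4 (Eya1, Pax2 and Sall1) and 2 lower (Six2 and Osr1). The sum of the 8 was 20.8 to 22.2 CPM in mK3 and 201 to 268 CPM in mK4. Most of the mK4 sum was Eya1, at 186.5 ± 31.1 CPM, while Osr1 was at 2.25 ± 0.235 CPM (SD, n = 3 libraries) and Six2 at 0 there. The mK3 libraries held 59, 15 and 61 counts of Six2, 6, 0 and 0 of Cited1 and none of Pax2, Sall1, Wt1 and Meox1, while Osr1 stood at 11.2 ± 0.779 CPM and Eya1 at 10.1 ± 0.818 CPM there (SD, n = 3 libraries). The summed level of 8 skeletal muscle markers was 0.912 to 1.23 CPM in mK3 and 0.989 to 1.41 CPM in mK4, with Myog, Myf5, Ckm and Myh3 at 0 in all 6 libraries. The part of cell identity in the differences below was not tested. CPM are counts scaled to library size, with TMM factors between libraries.

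More of these genes had higher RNA levels in mK4 than lower, and isozymes of a step often differed. Of the 42 features, 37 were high enough to be tested, and edgeR's quasi-likelihood test called 19 higher in mK4 and 5 lower at an adjusted p under 0.05, while 13 were not called. Over all 20405 tested genes, 20.8% were called higher and 19.5% lower, 40.3% in either direction. Among the 30 listed features with a mean of at least 10 CPM, 17 were called higher and 3 lower, against 25.1% higher and 28.9% lower of the 9044 genes at that level. Of the 37 features, those called and at least 2-fold higher numbered 10 (13.2% of all genes) and those at least 2-fold lower 4 (10.2% of all genes). Aldoa is counted by both its features among the 19, and by its second feature among the 10. With both summed, its log2 fold change was 0.90, below 2-fold. The median log2 fold change of the 37 features was 0.48, and that of all tested genes was 0.02. Libraries of the lines did not overlap for 23 features with mK4 above (28.8% of all genes) and for 7 with mK3 above (27.2%). These counts cover only the features that passed the filter on low counts. For 4 of them, Aldoc, Pklr, Slc16a3 and Pdk4, only 1 line had at least 10 counts in each of its libraries. CPM are not divided by transcript length, so levels of different genes are not compared. Counts are per gene, so splice forms such as those of Pkm are not told apart.

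**Figure D1:**
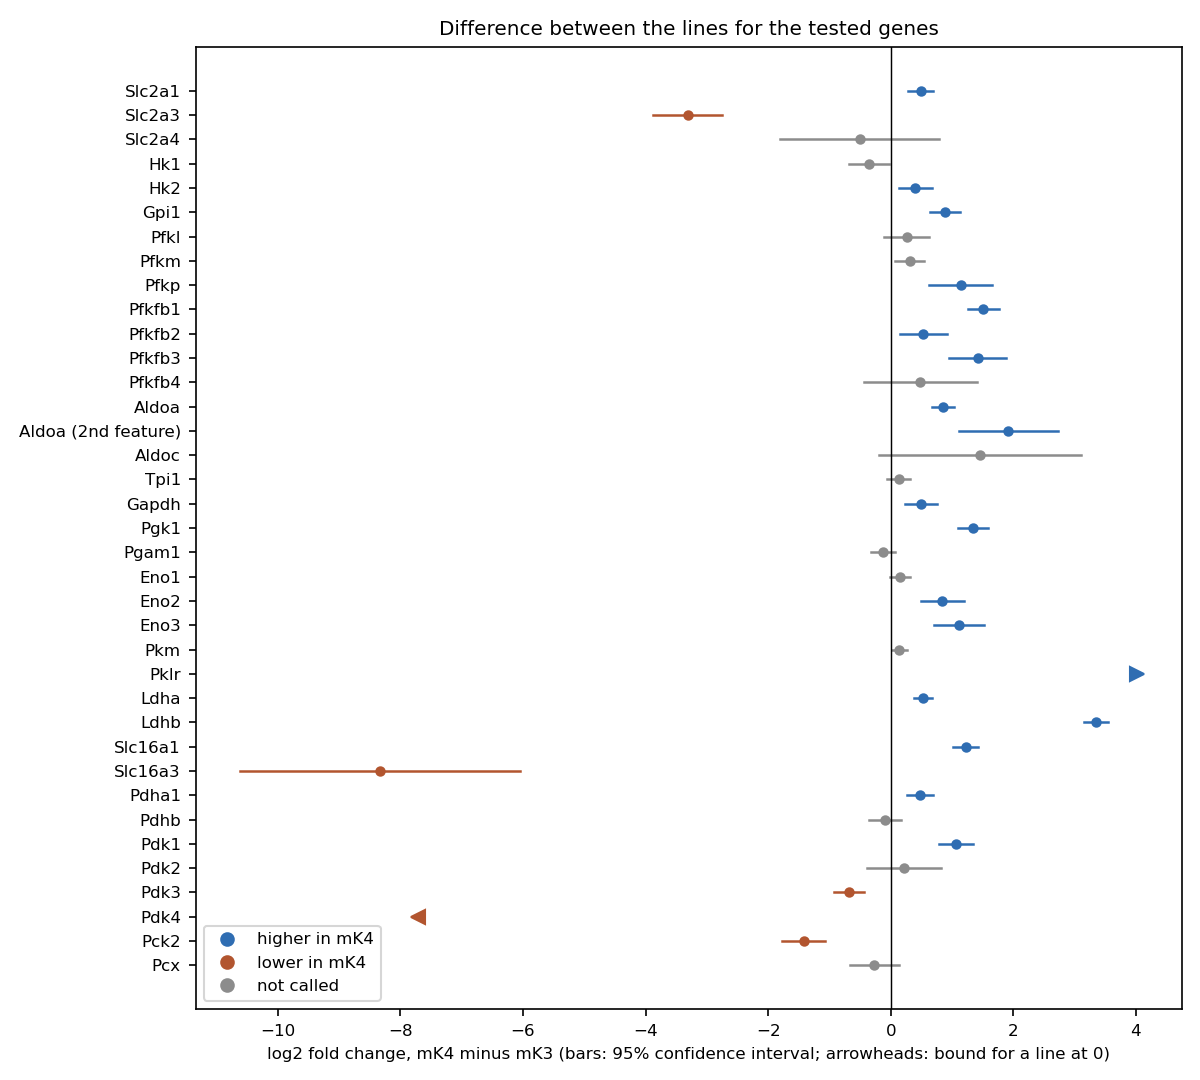
Log2 fold change of mK4 minus mK3 (horizontal axis) for each of the 37 tested features, ordered by role, with the 95% confidence interval of the fit; arrowheads are bounds for Pklr and Pdk4, which were at 0 in a line. Blue points are called higher in mK4, brown points lower and grey points not called. The blue points outnumber the brown, 19 to 5, and the farthest to the left are Slc16a3, Pdk4 and Slc2a3.

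The RNA of the glucose carriers differed in opposite directions. Slc2a1 encodes GLUT1, the widespread basal glucose carrier, and stood at 143, 122 and 143 CPM in the mK3 libraries and 199.7, 184 and 191 CPM in the mK4 libraries. Every mK4 library lay above every mK3 library, and the gene was 1.41-fold higher in mK4 (log2 fold change 0.49, SE 0.08, adjusted p = 0.00475). Slc2a3 encodes GLUT3, a high-affinity carrier known from neurons and embryonic tissue, and went the other way, with 7.59, 8.34 and 8.74 CPM in mK3 and 0.945, 0.913 and 0.620 CPM in mK4. It was 9.95-fold lower in mK4 (log2 fold change -3.31, SE 0.23, adjusted p = 0.000147). Slc2a4, which encodes the insulin-regulated carrier GLUT4 of muscle and fat, was low in both lines: its libraries held 73, 61 and 121 counts of it (mK3) and 72, 91 and 36 (mK4). The lines overlapped, it was not called, and the 95% interval of its log2 fold change ran from -1.81 to 0.79.

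Hexokinases trap glucose by phosphorylating it. Hk1, the ubiquitous isozyme, had 48.9, 35.8 and 39.8 CPM in mK3 and 30.1, 32.7 and 34.3 CPM in mK4. All mK4 libraries were below all mK3 libraries, but the difference did not pass (log2 fold change -0.36, SE 0.14, adjusted p = 0.0821). DESeq2 called it lower, and the range over 14 alternatives was 0.0334 to 0.268. Hk2, the inducible isozyme, had 35.7, 30.2 and 28.1 CPM in mK3 and 40.4, 42.6 and 41.1 CPM in mK4, a 1.32-fold higher level (log2 fold change 0.40, SE 0.11, adjusted p = 0.0294). The Hk2 call was lost without mK3 replicate 2 or 3 or any mK4 replicate and with a replicate block (range over 14 alternatives 0.00403 to 0.0835). Hk3, the hexokinase of leukocytes, had 0 counts in all 6 libraries. Of 8 leukocyte markers, Adgre1 and Itgam were also at 0 throughout and Ptprc had at most 13 counts in a library, but Csf1r had 115 to 233 counts in every library. Cd74 was lower in mK4 (18.5 ± 0.812 and 0.822 ± 0.315 CPM, adjusted p = 0.000207). Gpi1, which turns glucose 6-phosphate into fructose 6-phosphate, went from 87.5, 69.5 and 81.8 CPM in mK3 to 145, 144 and 154 CPM in mK4. It was 1.85-fold higher (log2 fold change 0.89, SE 0.10, adjusted p = 0.000854).

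Phosphofructokinase catalyses the committed step, and of its 3 genes the platelet-type Pfkp differed most. Pfkp had 31.9, 41.9 and 38.0 CPM in mK3 and 78.9, 62.5 and 105 CPM in mK4. The mK4 libraries were spread widely but all lay above mK3 (log2 fold change 1.14, SE 0.21, adjusted p = 0.00662). The muscle-type Pfkm had 33.4, 30.7 and 34.8 CPM in mK3 and 41.1, 37.4 and 44.0 CPM in mK4. Its libraries did not overlap, and it stood at the edge of the threshold (log2 fold change 0.31, SE 0.10, adjusted p = 0.0503). Pfkm passed in 4 of 14 alternatives, over which the adjusted p ran from 0.0231 to 0.142. The liver-type Pfkl overlapped between the lines, at 33.3, 27.7 and 30.1 CPM in mK3 and 38.4, 29.6 and 41.4 CPM in mK4 (adjusted p = 0.219, 95% interval of the log2 fold change -0.10 to 0.63).

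The PFKFB enzymes make and remove fructose 2,6-bisphosphate, the strongest activator of phosphofructokinase, and 3 of their 4 genes were higher in mK4. Pfkfb3, which encodes the form with the highest ratio of kinase to phosphatase activity, went from 40.5, 27.0 and 35.2 CPM to 99.5, 74.6 and 100.4 CPM, a 2.67-fold difference (log2 fold change 1.42, SE 0.19, adjusted p = 0.0019). Pfkfb1, known as the liver and muscle form, was the tightest of all members within mK3, at 6.93, 7.08 and 6.998 CPM, and had 19.4, 20.2 and 20.4 CPM in mK4. It was 2.85-fold higher (log2 fold change 1.51, SE 0.10, adjusted p = 0.00012). Pfkfb2, the heart form, had 16.6, 19.7 and 18.8 CPM in mK3 and 21.2, 29.2 and 29.3 CPM in mK4 (log2 fold change 0.53, SE 0.16, adjusted p = 0.0375). Only the omission of mK4 replicate 1 kept this call among the libraries left out, and it was also lost with no filter on low counts (range over 14 alternatives 0.0111 to 0.119). Pfkfb4 varied most within a line among members at 1 CPM or more in both, with a coefficient of variation of 48.9% in mK3. It had 6.51, 13.6 and 5.94 CPM there and 13.5, 14.2 and 8.57 CPM in mK4, was not called (adjusted p = 0.369), and passed without mK3 replicate 2 (adjusted p = 0.046, range over 14 alternatives 0.046 to 0.658).

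Aldolase splits the 6-carbon sugar, and its main gene Aldoa had 108, 119 and 124 CPM in mK3 and 216, 210.3 and 209 CPM in mK4. Aldoa was 1.81-fold higher (log2 fold change 0.85, SE 0.07, adjusted p = 0.000261). The second feature named Aldoa, ENSMUSG00000114515, was counted 381, 522 and 401 times in mK3, 1036, 1948 and 2526 times in mK4, and was also called higher (log2 fold change 1.92, SE 0.33, adjusted p = 0.00497). How the counting split reads between these 2 features is uncertain. With both summed, the log2 fold change was 0.90. Aldoc, the brain form, was counted 22, 5 and 15 times in mK3, 50, 43 and 32 times in mK4, and was not called (adjusted p = 0.141). Tpi1, which interconverts the triose phosphates, overlapped between the lines at 55.0, 55.7 and 61.5 CPM in mK3 and 63.5, 64.5 and 60.9 CPM in mK4 (adjusted p = 0.229, 95% interval of the log2 fold change -0.06 to 0.32). Tpi1 passed on library totals without scaling factors (adjusted p = 0.0375, range over 14 alternatives 0.0375 to 0.406).

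**Figure D2:**
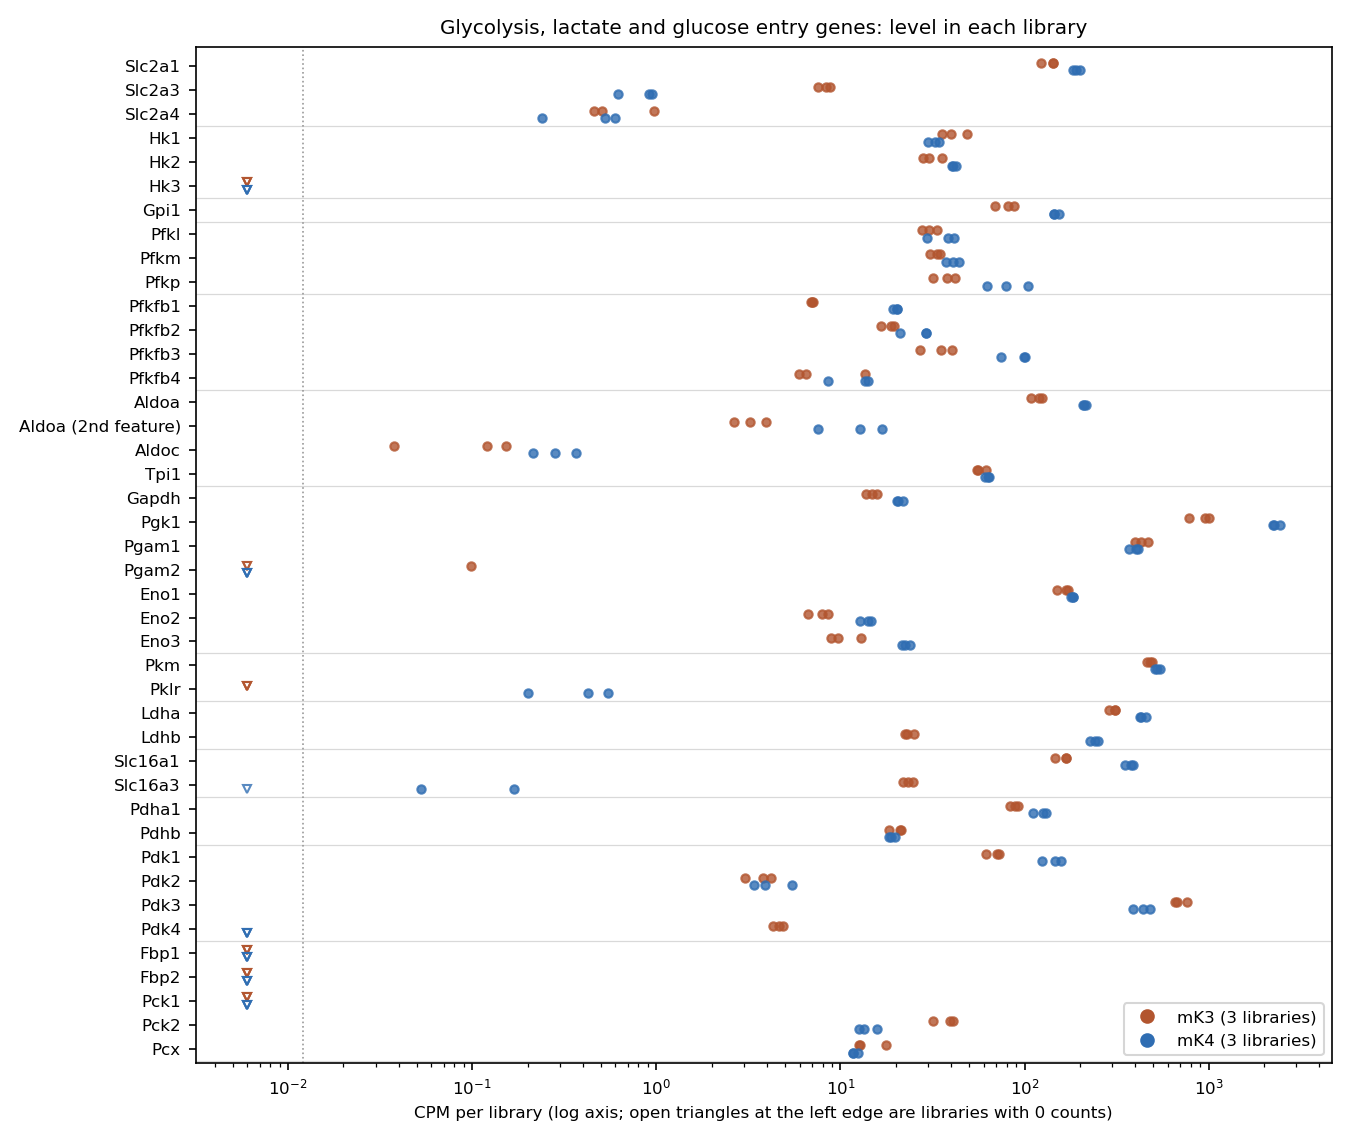
CPM of each of the 42 features in each of the 6 libraries (horizontal log axis), mK3 in brown and mK4 in blue; open triangles at the left edge mark libraries with 0 counts. Ldhb, Pgk1 and Slc16a1 lie to the right in mK4, and Slc2a3, Slc16a3 and Pdk4 to the left.

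In the steps from glyceraldehyde phosphate to pyruvate, Pgk1 stood out. Pgk1, whose product makes the first ATP of the pathway, had 787, 955 and 1004 CPM in mK3 and 2237, 2452 and 2273 CPM in mK4. Every mK4 library lay above every mK3 library, and the log2 fold change was 1.34 (SE 0.10, adjusted p = 0.000191). Gapdh, often used as a reference gene, had 15.9, 13.7 and 14.9 CPM in mK3 and 20.2, 21.8 and 20.6 CPM in mK4, a 1.41-fold difference (log2 fold change 0.50, SE 0.11, adjusted p = 0.0109). Mouse Gapdh has many processed pseudogenes, and the counting of reads shared with them is not stated in the labels. The phosphoglycerate mutase gene Pgam1 overlapped, at 401, 427 and 467 CPM in mK3 and 416, 369 and 402 CPM in mK4 (adjusted p = 0.27, 95% interval -0.32 to 0.07). Its muscle counterpart Pgam2 was counted 0, 13 and 0 times in mK3, never in mK4, and was not tested.

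Enolase moved by isozyme. The ubiquitous Eno1 had 150.4, 169 and 172 CPM in mK3 and 184, 182 and 179 CPM in mK4 and was not called (log2 fold change 0.15, SE 0.07, adjusted p = 0.139). The near-copy Eno1b, which may share reads with Eno1, was counted 3531, 3252 and 2830 times in mK3 but 86, 2611 and 2459 times in mK4, so 1 mK4 library stood far below the others. With Eno1b added, the log2 fold change of Eno1 was 0.04, and on library totals without scaling factors Eno1 passed (adjusted p = 0.0114, range over 14 alternatives 0.0114 to 0.675). The neuronal form Eno2 had 6.67, 8.52 and 7.92 CPM in mK3 and 14.0, 12.8 and 14.6 CPM in mK4 (log2 fold change 0.84, SE 0.14, adjusted p = 0.00469). The muscle form Eno3 went from 9.65, 8.90 and 12.99 CPM to 24.0, 21.7 and 22.3 CPM (log2 fold change 1.11, SE 0.17, adjusted p = 0.00294), while the skeletal muscle markers stayed near 0 as above.

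Pyruvate kinase makes pyruvate and the second ATP. Pkm had 490.0, 464 and 478 CPM in mK3 and 523, 513 and 546 CPM in mK4. The lines did not overlap, but the difference was small and did not pass (log2 fold change 0.14, SE 0.05, adjusted p = 0.0759). It passed on library totals without scaling factors (adjusted p = 0.0322, range over 14 alternatives 0.0322 to 0.196). Pklr, the liver and red cell gene, was not counted in mK3 and had 75, 65 and 30 counts in the mK4 libraries. Set against 3 counts in each mK3 library, the limit that a count of 0 allows (up to 0.0242 CPM), its mK4 level of 0.392 ± 0.177 CPM (SD, n = 3 libraries) was at least 16.2-fold higher (edgeR, adjusted p = 0.0054). With a replicate block this call was lost (adjusted p = 0.0668, range over 13 alternatives 4.38e-06 to 0.0668). Such floors cover counting error only.

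Lactate dehydrogenase, which interconverts pyruvate and lactate, showed the largest increase among members detected in both lines. Ldhb encodes the heart-type H subunit and had 22.3, 25.0 and 23.0 CPM in mK3 and 249.6, 243 and 226 CPM in mK4. The mK4 libraries lay about an order of magnitude above the mK3 libraries, a 10.2-fold difference (log2 fold change 3.35, SE 0.08, adjusted p = 7.12e-06). Ldha encodes the muscle-type M subunit and had 288, 312 and 308 CPM in mK3 and 429, 424 and 456 CPM in mK4, a 1.44-fold difference (log2 fold change 0.53, SE 0.06, adjusted p = 0.000936). Both genes were thus higher in mK4, and the Ldhb call and the Ldha call held in all 14 alternatives.

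The lactate carriers went in opposite directions. Slc16a1 encodes MCT1, which moves lactate and pyruvate in or out of the cell, and had 146, 168 and 168 CPM in mK3 and 381, 391 and 351 CPM in mK4. It was 2.33-fold higher (log2 fold change 1.22, SE 0.08, adjusted p = 0.000123). Slc16a3 encodes MCT4, the lactate exporter of highly glycolytic cells, and was counted 3159, 3083 and 3088 times in mK3 but 23, 8 and 0 times in mK4. That is 23.4 ± 1.44 CPM in mK3 and 0.0737 ± 0.0862 CPM in mK4 (SD, n = 3 libraries), with an adjusted p of 0.00093 (edgeR). These carriers need a membrane partner protein. Bsg, which encodes the common partner basigin, was not called (mK3 940.5 ± 349 CPM, mK4 826 ± 113 CPM, adjusted p = 0.618), and its direction turned without mK3 replicate 3, the highest library (log2 fold change 0.16). Emb, which encodes embigin, another partner, had 0.522, 1.15 and 1.33 CPM in mK3 and 133, 104 and 115 CPM in mK4 (log2 fold change 6.88, SE 0.40, adjusted p = 7.85e-05).

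The 250 bases before the starts of the lactate genes are shown so that the isozymes and carriers of one step can be set side by side, together with Pgk1, called higher in mK4, and Pdk4, not detected there. Sequences and starts are from RefSeq for GRCm38.p6, which is mm10, and 39 of the 41 genes matched that table, Slc2a3 and Slc2a4 being the others. Each runs 5′ to 3′ towards the start, and capitals mark the core motif bound by hypoxia-inducible factors, ACGTG or GCGTG, on either strand (CACGT or CACGC on the strand shown). CACGTG, the E-box of Myc-type factors, contains ACGTG on both strands and so counts there as 2 overlapping matches. The regions are chr7:46845554-46845803 (plus strand) for Ldha, chr6:142507958-142508207 (minus) for Ldhb, chr3:104638414-104638663 (plus) for Slc16a1, chr11:120948817-120949066 (plus) for Slc16a3, chrX:106186850-106187099 (plus) for Pgk1 and chr6:5496279-5496528 (minus) for Pdk4.
Ldha: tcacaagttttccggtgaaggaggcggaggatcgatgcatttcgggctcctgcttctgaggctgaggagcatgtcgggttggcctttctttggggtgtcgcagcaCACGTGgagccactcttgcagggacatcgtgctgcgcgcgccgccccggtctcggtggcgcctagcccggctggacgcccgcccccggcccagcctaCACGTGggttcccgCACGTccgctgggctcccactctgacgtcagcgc
Ldhb: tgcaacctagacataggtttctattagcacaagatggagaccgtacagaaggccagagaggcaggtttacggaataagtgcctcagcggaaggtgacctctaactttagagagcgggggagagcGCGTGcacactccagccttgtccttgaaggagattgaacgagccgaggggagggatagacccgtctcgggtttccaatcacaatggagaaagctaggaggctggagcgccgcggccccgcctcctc
Slc16a1: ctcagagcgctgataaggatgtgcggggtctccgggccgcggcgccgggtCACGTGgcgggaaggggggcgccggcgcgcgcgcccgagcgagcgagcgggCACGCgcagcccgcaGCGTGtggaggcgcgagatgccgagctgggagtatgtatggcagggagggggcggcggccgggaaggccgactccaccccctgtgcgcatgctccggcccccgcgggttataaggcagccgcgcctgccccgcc
Slc16a3: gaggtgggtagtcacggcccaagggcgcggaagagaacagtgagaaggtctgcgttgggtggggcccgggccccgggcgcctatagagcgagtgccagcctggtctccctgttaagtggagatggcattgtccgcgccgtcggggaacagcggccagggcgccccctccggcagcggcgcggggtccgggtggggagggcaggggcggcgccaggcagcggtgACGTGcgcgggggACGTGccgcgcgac
Pgk1: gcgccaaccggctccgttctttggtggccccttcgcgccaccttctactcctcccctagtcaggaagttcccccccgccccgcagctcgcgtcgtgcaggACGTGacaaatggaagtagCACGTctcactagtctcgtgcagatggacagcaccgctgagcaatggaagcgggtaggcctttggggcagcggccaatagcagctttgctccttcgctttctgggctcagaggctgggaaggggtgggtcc
Pdk4: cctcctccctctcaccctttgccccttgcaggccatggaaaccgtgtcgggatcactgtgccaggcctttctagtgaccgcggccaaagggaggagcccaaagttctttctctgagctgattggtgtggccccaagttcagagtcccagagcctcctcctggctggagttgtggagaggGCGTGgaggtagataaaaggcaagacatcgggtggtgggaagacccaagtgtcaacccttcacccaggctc

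The Ldha region shown held 5 matches, 4 of them in CACGTG sites, and the Ldhb region 1. RefSeq lists another Ldha start, whose window (chr7:46846832-46847081) held 1 match and no CACGTG. Slc16a1 had 4 matches, 2 of them in a CACGTG site, while Slc16a3 had 2, within 27 bases of the start. Pgk1 had 2 and Pdk4 had 1. Over all members, 42 of 60 listed starts (70.0%) held ACGTG or GCGTG, against 38.6% of all 32851 RefSeq starts in windows of the same length, and 8 (13.3%) held CACGTG, against 6.02%. The 60 starts belong to 39 genes, and some windows of a gene overlap and share a match, as for Aldoa and Eno1, so they are not separate cases. By gene, 32 of the 39 held ACGTG or GCGTG at a start, and the share by gene over all RefSeq genes was not computed. The member windows were also richer in G and C, with a median of 58.2% against 52.4%, and had a median of 11 CG dinucleotides against 6. A match is only a string of letters and does not show binding. Slc16a3, which was nearly at 0 in mK4, and Slc16a1, which was higher there, both held them.

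Open chromatin at the starts was listed for most members in both lines. Of the 41 genes, 29 had a peak within 1 kb of a start in mK3, 30 in mK4 and 27 in both. Among the 34 tested members with a RefSeq start, 29 had one in mK3, 29 in mK4 and 27 in both, against 63.6%, 69.8% and 59.2% of the 11904 tested genes with a RefSeq start. These shares were not computed at a matched RNA level. A mean of at least 10 CPM was reached by 30 of the 37 tested features, against 9044 of all 20405 tested genes. There was 1 ATAC-seq library per line and no test, and fold enrichment is the authors' value, read within its own list of 22477 or 34710 peaks on the numbered chromosomes, X and Y. The start peak of Ldhb had a fold enrichment of 4.83 in mK3 (chr6:142507854-142508100, the strongest 35.8% of its list) and 10.3 in mK4 (chr6:142507398-142508358, the strongest 4.0%). The start peak of Pgk1 was in the strongest 7.51% in mK3 and 3.16% in mK4, that of Pfkp in 15.4% and 3.62%, and that of Pdk3 in 5.18% and 42.6%. Ranks did not follow the RNA in all called members. Pck2, whose RNA was lower in mK4, had its start peak in the strongest 15.4% in mK3 and 5.54% in mK4. Slc2a1, whose RNA was higher in mK4, had its strongest start peak in 21.3% and 44.4%, at places that did not overlap. The lists differ in length, so these ranks show no change between the lines.

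Genes with large RNA differences differed in their peaks. The Pdk4 start had 2 peaks in mK3, at chr6:5495953-5496177 within the gene and chr6:5496294-5496776 over the bases shown above, and none within 5 kb of the start or in the gene in mK4. Both mK3 peaks were weak, with fold enrichments of 3.95 and 4.09 against a list median of 4.25, and a −log10 q under 10. Slc16a3 had no peak within 1 kb in either line, but mK3 had 1 inside the gene (chr11:120950691-120951128, fold enrichment 4.75, summit 1976 bp from the start) and mK4 had none there. Slc2a3, lower in mK4, had more listed peaks over its RefSeq span in mK4, 6 against 2, but the mK4 list is the longer. The strongest of them had a fold enrichment of 9.12 in mK3 and 12.3 in mK4. A peak outside the span, 2386 bp from a gene end in mK3 and 2382 bp in mK4, had 6.82 in mK3 and 3.65 in mK4. Pklr had no peak over its span in either line. Among the 34 members, Gpi1 and Tpi1 had a peak within 1 kb in mK4 and not in mK3 (10.6% of tested genes), and Pdk4 and Eno3 in mK3 and not in mK4 (4.39%). Slc2a4, placed by its gene ends, also had one in mK4 and not in mK3. When only start peaks with a −log10 q of at least 10 were kept, 0 of the 41 genes had one in mK3 only. In mK4 only, 2 had one. Eno3 RNA was higher in mK4, and its mK3 peak was among the weakest of the list (fold enrichment 2.50). An mK4 peak (chr11:70655624-70656052, fold enrichment 2.93) overlapped it but lay just beyond 1 kb from the start, so for Eno3 the difference rests on that limit.

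**Figure D3:**
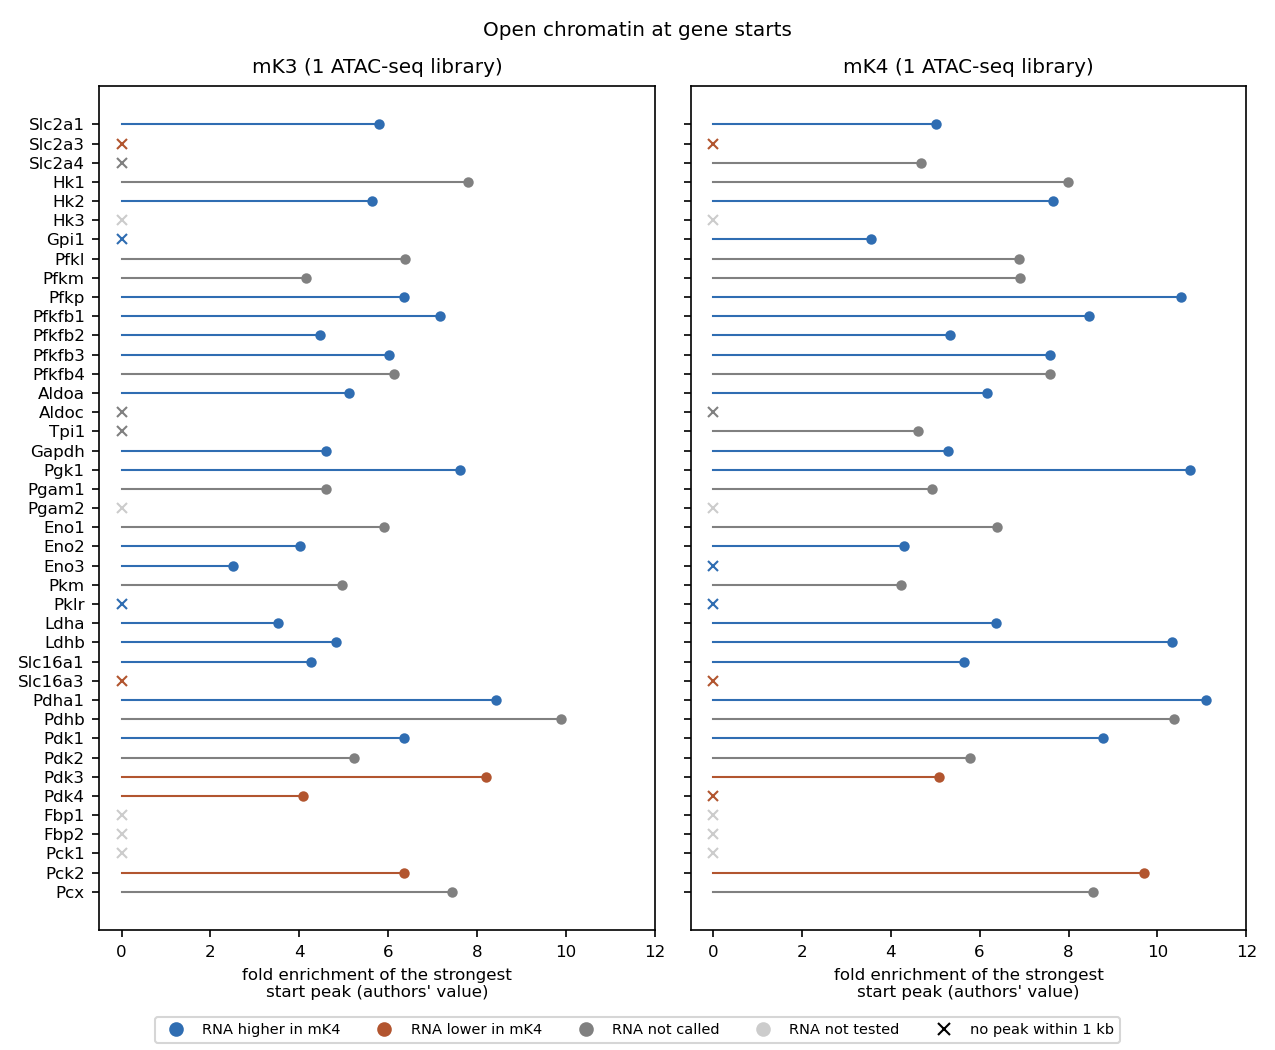
Fold enrichment of the strongest ATAC-seq peak within 1 kb of a gene start for the 41 genes (horizontal axis, the authors' value), with mK3 in the left panel and mK4 in the right, and crosses where no peak was listed. Colours give the RNA call. The start peak of Ldhb stands at 4.83 in mK3 and 10.3 in mK4, and Pdk4 has one in mK3 only, at 4.09.

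Of the 4 PDH kinase genes, which control the use of pyruvate in the mitochondrion, 1 was higher in mK4 and 2 were lower. Pdk1, a kinase gene known as a hypoxia target, had 61.8, 72.9 and 70.5 CPM in mK3 and 158, 147 and 125 CPM in mK4 and was 2.10-fold higher (log2 fold change 1.07, SE 0.11, adjusted p = 0.000718). Pdk3 was 1.6-fold lower in mK4, with 660.1, 674 and 762 CPM in mK3 and 441, 481 and 388 CPM in mK4 (log2 fold change -0.68, SE 0.10, adjusted p = 0.00261). Pdk4, the kinase of fasting and fatty acid use, was counted 697, 613 and 535 times in mK3 and never in an mK4 library. Its mK3 level of 4.597 ± 0.273 CPM was at least 209-fold higher than the floor of 3 counts per library in mK4 (edgeR, adjusted p = 0.000161). Pdk2, the widespread form, overlapped, at 3.80, 4.19 and 3.04 CPM in mK3 and 3.40, 5.47 and 3.91 CPM in mK4 (adjusted p = 0.55, 95% interval of the log2 fold change -0.39 to 0.81).

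The enzyme that these kinases act on also differed by subunit. Pdha1, the E1 alpha subunit that carries the phosphorylation sites, had 83.6, 88.5 and 92.7 CPM in mK3 and 132, 127 and 111 CPM in mK4 (log2 fold change 0.48, SE 0.09, adjusted p = 0.00634). Pdhb, the E1 beta subunit, overlapped, at 18.4, 21.3 and 21.1 CPM in mK3 and 18.4, 18.8 and 19.9 CPM in mK4 (adjusted p = 0.549, 95% interval -0.35 to 0.17). Of 8 partner genes of the complex and of pyruvate import, 4 were higher in mK4 and none lower (20.8% and 19.5% of all tested genes). Pdhx, which anchors the E3 subunit, went from 36.2 ± 2.40 to 63.9 ± 8.76 CPM (adjusted p = 0.0026), and the PDH phosphatase gene Pdp1, whose product reverses the kinases, from 24.2 ± 1.38 to 32.97 ± 2.54 CPM (adjusted p = 0.0131). The mitochondrial pyruvate carrier genes Mpc1 and Mpc2 were not called.

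Of the 5 genes of gluconeogenesis, a pathway of the mature proximal tubule, 3 were not detected. Fbp1, Fbp2 and Pck1 had 0 counts in all 6 libraries. The mitochondrial PEPCK gene Pck2 had 40.9, 32.0 and 39.3 CPM in mK3 and 12.7, 15.8 and 13.5 CPM in mK4, a 2.68-fold lower level (log2 fold change -1.42, SE 0.14, adjusted p = 0.000573). The pyruvate carboxylase gene Pcx, which also feeds the citric acid cycle, had 17.7, 12.8 and 12.6 CPM in mK3 and 11.7, 12.4 and 11.7 CPM in mK4 (adjusted p = 0.249).

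The balance between isozymes of a step was compared as the log2 ratio of their counts within each library, which needs neither scaling between libraries nor gene length for its change. Of 12 pairs, 10 had ratios that did not overlap between the lines. Some pairs share a gene, so they are not 12 separate cases, and the share over all pairs of genes was not computed. Of single genes, 56.1% of all tested did not overlap. Of the 37 tested members, 23 did not overlap with mK4 above and 7 with mK3 above. An exact two-sided permutation test of 3 against 3 libraries cannot go below p = 0.1, which is the value of each of these 10 pairs (0.12 adjusted over the 12), so none can be called. The Ldha to Ldhb ratio on the log2 scale was 3.69, 3.64 and 3.74 in mK3 and 0.78, 0.80 and 1.02 in mK4, a 7.08-fold shift towards Ldhb. The Slc2a1 to Slc2a3 ratio went from 4.05 ± 0.18 to 7.88 ± 0.34 (SD, n = 3 libraries), a 14.2-fold shift towards Slc2a1. The Slc16a1 to Slc16a3 ratio went from 2.78 ± 0.06 in mK3 to 11.1, 12.8 and 16.7 in mK4, where the last value rests on 0 counts of Slc16a3 and the added 0.5.

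Smaller shifts ran through the upper pathway and the kinases. The Hk1 to Hk2 ratio went from 0.40 ± 0.14 to -0.36 ± 0.09, a shift of -0.76 (SE 0.09) towards Hk2. Pfkp gained on Pfkl by 0.86 (SE 0.22) and on Pfkm by 0.81 (SE 0.21), whereas the ratio of Pfkl to Pfkm overlapped between the lines. Eno2 gained on Eno1 by 0.69 (SE 0.08). Relative to Pdk2, Pdk1 was higher in mK4 by 0.87 (SE 0.28) and Pdk3 lower by 0.88 (SE 0.26).

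**Figure D4:**
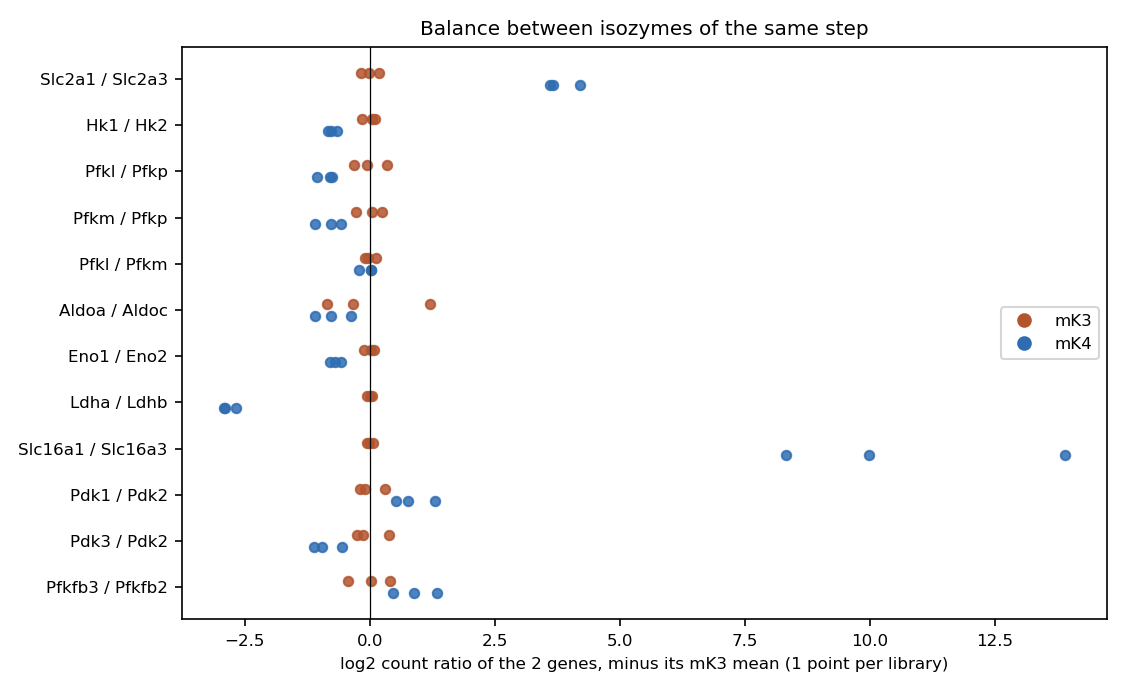
Log2 ratio of the counts of a gene pair in each library, minus the mean of the 3 mK3 libraries (horizontal axis), for the 12 pairs; mK3 in brown, mK4 in blue. The mK4 points of Slc16a1 / Slc16a3 and Slc2a1 / Slc2a3 lie far to the right and those of Ldha / Ldhb to the left, and the lines overlap for Pfkl / Pfkm and Aldoa / Aldoc.

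Connected pathways were counted in the same way. Of all tested genes, 20.8% were called higher in mK4 and 19.5% lower. Of 16 genes of the citric acid cycle, all tested, 7 were lower in mK4 and 1 was higher, with a median log2 fold change of -4e-05. Sucla2, a succinyl-CoA ligase subunit, went from 83.6 ± 8.52 to 33.4 ± 3.81 CPM (adjusted p = 0.000414) and citrate synthase, Cs, from 240.2 ± 1.59 to 188 ± 5.66 CPM (adjusted p = 0.0029). Sdhc, a subunit of succinate dehydrogenase, was the member called higher (60.4 ± 8.32 and 124.5 ± 37.0 CPM, adjusted p = 0.0146, lost without mK3 replicate 1 at 0.0532, range over 14 alternatives 9.98e-05 to 0.0532). Of 7 pentose phosphate genes, 2 were lower and 1 higher, with a median of -0.01. G6pdx, the entry enzyme that makes NADPH, was lower by 1.26 on the log2 scale (161 ± 7.58 and 67.1 ± 4.496 CPM, adjusted p = 9.27e-05), and Pgd, the next NADPH-making enzyme, went from 38.8 ± 2.81 to 27.4 ± 1.09 CPM (adjusted p = 0.00615). Taldo1, of the non-oxidative branch, was higher (38.0 ± 2.83 and 48.1 ± 0.876 CPM, adjusted p = 0.0204), a call lost without replicate 1 or 2 of either line and with a replicate block (range over 14 alternatives 0.00167 to 0.0646).

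Glycogen genes went both ways, with 5 of 14 higher in mK4 and 2 lower (20.8% and 19.5% of all tested genes). The branching enzyme gene Gbe1 had 168, 198 and 181 CPM in mK3 and 912, 913 and 854 CPM in mK4 (log2 fold change 2.29, SE 0.08, adjusted p = 1.6e-05). Gyg, which encodes the glycogenin primer, went from 30.1 ± 0.736 to 119.9 ± 14.8 CPM (adjusted p = 5.61e-05). Ugp2, which makes UDP-glucose, was lower (604 ± 23.3 and 420.5 ± 26.1 CPM, adjusted p = 0.00147), and Ppp1r3c, a glycogen-targeting phosphatase subunit, was at 0 in mK4 while mK3 had 1.67 ± 0.654 CPM, at least 76.1-fold higher than the floor (adjusted p = 0.00112). Ppp1r3c passed the filter on low counts only through mK3. Of 9 redox shuttle genes, 2 were higher and none lower, both of the glycerol phosphate shuttle: Gpd1l at 39.7 ± 4.91 and 65.2 ± 2.96 CPM (adjusted p = 0.00303) and Gpd2 at 37.8 ± 2.13 and 54.1 ± 1.03 CPM (adjusted p = 0.00287). Gpd1, of the same shuttle, had 0.668, 1.22 and 0.153 CPM in mK3 and 0.198, 4.03 and 0.260 CPM in mK4 and was not called (adjusted p = 0.55).

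Other carriers and isozymes added few calls, beside the 20.8% of all tested genes called higher and the 19.5% called lower. Among 11 tested of 14 other sugar and lactate carriers and their partners, Emb was higher and Slc2a10, which encodes GLUT10, lower: mK3 had 3.85 ± 0.374 CPM and mK4 none, a difference of at least 175-fold (adjusted p = 0.00021). Slc2a10 passed the filter on low counts only through mK3. Of 16 other isozymes and side enzymes, 10 were tested, 2 were lower and 1 was higher. Pgk2 and Ldhc, the testis forms, were at 0 in all libraries, as was G6pc, which releases free glucose. Galm, which converts the anomers of sugars, was lower (121 ± 11.0 and 39.2 ± 9.21 CPM, adjusted p = 0.00099), as was the phosphatase gene Minpp1 (221 ± 22.1 and 143 ± 8.47 CPM, adjusted p = 0.00288). Tigar, which removes fructose 2,6-bisphosphate, was higher at the edge of the threshold (6.28 ± 1.24 and 9.94 ± 1.57 CPM, adjusted p = 0.0486), a call lost in 8 of 14 alternatives (range 0.0173 to 0.139). Those were the ones without any mK3 replicate or without mK4 replicate 2 or 3, with RLE scaling, with no filter on low counts and with a replicate block.

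Genes of the hypoxia-inducible factor pathway and the hypoxia response outside glycolysis went both ways. Of 24, 7 were higher in mK4 and 6 lower (20.8% and 19.5% of all tested genes), with a median log2 fold change of 0.18. Egln3, a prolyl hydroxylase gene induced by hypoxia, had 30.7, 32.4 and 34.5 CPM in mK3 and 215, 233 and 222 CPM in mK4 (log2 fold change 2.78, SE 0.08, adjusted p = 9.31e-06). Bnip3, a mitophagy receptor gene, went from 320.4 ± 28.2 to 1071 ± 52.4 CPM (adjusted p = 3.84e-05). In the other direction, the collagen prolyl hydroxylase genes P4ha1 and P4ha2 went from 370.2 ± 6.76 to 202 ± 6.995 CPM (adjusted p = 9.19e-05) and from 63.9 ± 7.49 to 30.8 ± 0.598 CPM (adjusted p = 0.000515). Hif1a itself was not called (149 ± 7.07 and 167 ± 4.23 CPM, adjusted p = 0.0978), and neither was Vegfa, a common hypoxia target (30.2 ± 7.52 and 25.5 ± 5.54 CPM, adjusted p = 0.464). Among the other called genes, Arnt (114 ± 16.6 and 185 ± 34.3 CPM) and Egln1 (272 ± 25.6 and 422 ± 14.6 CPM) were higher. Car9 was also higher (0.321 ± 0.121 and 12.3 ± 1.30 CPM), while Bnip3l was lower (160 ± 8.19 and 99.5 ± 7.78 CPM). Hif1a passed on library totals without scaling factors (adjusted p = 0.0129, range over 14 alternatives 0.0129 to 0.219). Oxygen during culture is not given in the labels.

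**Figure D5:**
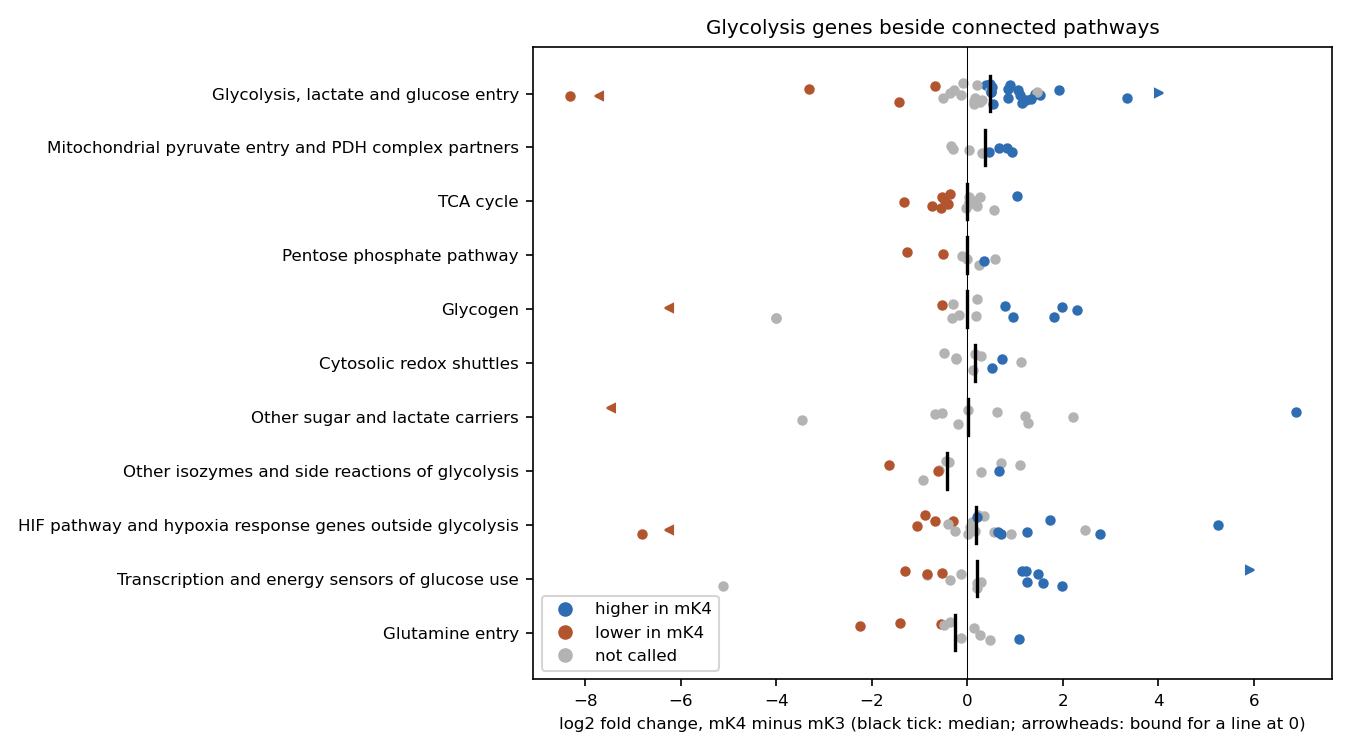
Log2 fold change of mK4 minus mK3 (horizontal axis) of each tested gene, by list, with a black tick at the median and arrowheads for bounds; blue is called higher in mK4, brown lower and grey not called. The median of the glycolysis, lactate and glucose entry genes is 0.48, against -4e-05 for the citric acid cycle and 0.18 for the hypoxia-inducible factor pathway and hypoxia response genes.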

How the data were processed

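The deposited RNA table holds raw read counts as whole numbers for 6 strand-specific libraries. The submitters' processing notes name mm10, HTSeq 2.0.2, STAR 2.7.10a and MACS3, among others, without their settings, and do not state the handling of reads shared by several genes. In the deposited peak lists, 1 per line, each peak has a fold enrichment (a ratio), −log10 p, −log10 q and a score equal to 10 times the −log10 q with decimals dropped.

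The 55558 Ensembl features were fitted together with edgeR 4.0.16 in R 4.3.3 (filterByExpr, TMM, robust glmQLFit and glmQLFTest, mK4 against mK3), with Benjamini-Hochberg adjustment over all 20405 tested genes and calls at 0.05. SE is the log2 fold change divided by the square root of F. Ratios of gene pairs used counts plus 0.5. Peaks were assigned with pandas 2.3.3 in Python 3.11.15 to RefSeq starts (either gene end for Slc2a3 and Slc2a4). The steps were tested on simulated data. DESeq2 1.42.0, other scalings and filters, a replicate block and leaving out each library were the alternatives, and one was added after seeing the data. The members and the lists of connected genes were chosen with earlier results of these data known. All 41 members are described, and of each other list up to 2 called genes per direction with the smallest adjusted p are named. Bsg, Hif1a, Vegfa, Mpc1, Mpc2, Myc, Mycn, Gpd1 and genes at 0 were named for their roles. Arnt, Egln1, Car9 and Bnip3l were named after their values were seen.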

Additional observations from a re-analysis of the deposited data

How the results depend on the processing

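The counts of members called kept within 1.5 times under every alternative run except 1: with testing limited to genes that reach 1 CPM in each of the 6 libraries, 2 members were lower in place of 5, since Slc2a3, Slc16a3 and Pdk4 are then not tested. Members called higher numbered 17 to 23 over the alternatives and those lower 2 to 6 (23 higher on library totals without scaling factors, which moved the median of all genes to 0.13, and 20 with DESeq2). Leaving out each library gave 17 to 18 higher and 5 lower. Of 511 values of single members, 487 kept direction and side of the threshold, 13 lost the call, 9 gained it and 2 reversed. Of 486 values of 35 named genes of other lists the numbers were 470, 14, 1 and 1. The reversals were of genes not called: Pdhb at 0.0208 on library totals, Pdk2 between -0.00061 and 0.35 and Bsg between -0.37 and 0.16 (0.155 without mK3 replicate 3) when 1 library was left out. The Pfkl to Pfkm ratio ran from -0.0968 to 0.0279 when 1 library was left out, and 94 of 96 values of ratios kept their direction. Adding named copies to their parent gene, chosen after seeing the data, gave 18 higher and 5 lower.

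Same-numbered libraries shared only a number: their deviations correlated at -0.02 to 0.02 over tested genes. With a replicate block 17 members were called higher and 5 lower, against 3281 and 3129 of all genes, and the calls of Hk2 and Pklr were lost (adjusted p = 0.0668 for Pklr). The number of members with a start peak stayed within 1.5 times with a 5 kb window (34 in mK3, 34 in mK4) and at a −log10 q of at least 10 (25 and 27), and 23 pairs of start peaks overlapped at 1 bp and at 50% of the shorter peak.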

Other observations

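Glutamine is the other main carbon source of cultured cells. Of 10 of its genes 3 were lower in mK4 and 1 was higher, with a median log2 fold change of -0.25. Of all tested genes, 19.5% were lower and 20.8% higher. Slc38a2, an amino acid carrier gene that responds to amino acid shortage, had 645, 634 and 632 CPM in mK3 and 129, 134 and 137 CPM in mK4 (edgeR, log2 fold change -2.26, SE 0.05, adjusted p = 6.51e-06), and its relative Slc38a1 went from 49.2 ± 1.42 to 33.8 ± 0.748 CPM (adjusted p = 0.00189). Glul, which makes glutamine, was higher in mK4 (9.15 ± 1.16 and 19.4 ± 0.502 CPM, adjusted p = 0.00112).

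Of 17 tested genes that sense energy or glucose or control its use, 7 were higher in mK4 and 3 lower (20.8% and 19.5% of all tested genes). The glucose-responsive arrestin genes Txnip and Arrdc4 were both higher, Txnip at 23.9, 26.6 and 23.7 CPM in mK3 and 61.4, 56.0 and 57.4 CPM in mK4 (adjusted p = 0.000158) and Arrdc4 at 4.92 ± 0.316 and 14.9 ± 1.85 CPM (adjusted p = 0.000414). Foxo1, a factor restrained by insulin signalling, was lower (110 ± 6.21 and 44.6 ± 2.15 CPM, adjusted p = 8.37e-05), and so was the AMPK subunit gene Prkag1 (213 ± 20.4 and 119.5 ± 5.67 CPM, adjusted p = 0.00072). The AMPK subunit genes went both ways: of the 5 in the list, named together after their values were seen, Prkaa1 was also lower (213 ± 8.12 and 147 ± 5.98 CPM, adjusted p = 0.00103), Prkaa2 (19.8 ± 5.17 and 78.6 ± 2.31 CPM, adjusted p = 0.000509) and Prkab2 (14.1 ± 1.68 and 31.1 ± 2.12 CPM, adjusted p = 0.000767) were higher, and Prkab1 was not called. Myc, a known activator of glycolysis genes, varied widely between libraries (5.78, 2.31 and 8.95 CPM in mK3, 4.07, 3.65 and 1.78 CPM in mK4) and was not called (adjusted p = 0.278). Mycn, of the same list, was not counted in mK3 and had 268, 183 and 181 counts in the mK4 libraries. Its mK4 level was at least 60.3-fold above the floor of 3 counts per library in mK3 (edgeR, adjusted p = 0.00099). Mycn passed the filter on low counts only through mK4, the line where it was high.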
